A study of Solea senegalensis with 30 samples.

Results

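The name miR-3963 stood among the abundant names in plasma of Senegalese sole, and its reads were short, shared a 3′ end and varied at the 5′ end. All rows of the count table listed under this miRNA number were taken. They gave 26 isomiR rows of 2129, all under 1 of the 172 names. An isomiR is a length or sequence variant counted under a miRNA name. The name was selected on its measured abundance and its read lengths in these libraries, so its overall level and rank, and its length and end profile beside the other names, are given as a description with no test. Tests were run only between groups of fish and for relations over the fish.

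Small RNA was sequenced from blood plasma of 30 adult fish, 1 library per fish, 20 of them males. Treated fish received 1 intramuscular injection of the kisspeptin decapeptide KISS2-10 at 250 µg/kg, a peptide that acts upstream of the reproductive hormone axis, and controls received the saline vehicle PBS. The 6 groups were kisspeptin females (n = 5), control females (n = 5), kisspeptin males (n = 6) and control males (n = 4) at 2 d after injection, and kisspeptin males (n = 5) and control males (n = 5) at 4 d. All fish were breeders of the first generation reared in captivity. Fish of a treatment and day carried the same label prefix, and the labels do not say what it stands for. Per the paper, 1 tank of each treatment was sampled on each day, so treatment and tank cannot be told apart. Library totals, summed over the names analysed here, ran from 25468 to 191846 counts with a median of 60539.

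Most miRNAs are cut from a hairpin by the enzymes Drosha and Dicer. The 5′ end of the product fixes its seed, the bases 2 to 8 with which it pairs to target mRNAs, and most processed miRNAs vary more at the 3′ end than at the 5′ end. The name miR-3963 is a miRBase entry described in mouse. Here it was given because reads mapped to a hairpin of another species, and no hairpin of the sole was used. Mature tRNAs of animals carry the bases CCA at the 3′ end, which are added after transcription and are not in the gene. No tRNA or hairpin sequence was compared with the reads, and the origin of the reads was not tested.

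The forms of miR-3963 are shown first because the results turn on their ends. Each is written 5′ to 3′ as DNA letters, as the table lists it, with a terminal CCA in capitals. The first 8 are the most counted forms in falling order, and the last 2 are the longest forms at either side.
form 1: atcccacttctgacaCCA
form 2: tcccacttctgacaCCA
form 3: cccacttctgacaCCA
form 4: ccacttctgacaCCA
form 5: atcccacttctgacacc
form 6: tcccacttctgacacc
form 7: atcccacttctgacaccat
form 8: cccacttctgacacc
longest form at the 5′ side: ttgtatcccacttctgacaCCA
longest form at the 3′ side: atcccacttctgacaccatg

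Form 1, of 18 nt, had 18477 counts, or 35.0% of the 52786 counts of the name. Forms 2, 3 and 4 each began 1 base later than the one before and kept the same 3′ end, and they had 23.6%, 12.6% and 6.71% of the counts. These 4 forms make a ladder that steps in from the 5′ side. Forms 5, 6 and 8 repeated the first 3 steps of the ladder without the last base, with 6.51%, 5.13% and 2.21%. Form 7, 1 base longer than form 1, had 2.31%.

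All 26 forms lay without a mismatch inside 1 stretch of 24 nt, and every form held the same 10 bases. The 11 forms with at least 1% of the counts held 99.1% of them. A library held 9 to 20 of the forms, 6 forms were counted in all 30 libraries, and 3 were counted in 1 library. The form of 22 nt that reached farthest to the 5′ side had 1 count, in the kisspeptin male A4-9. No form was also listed under another name, whereas 112 sequences of the table were listed under more than 1 name. No row of another name held the 10 shared bases or any 12 bases of form 1.

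The reads of miR-3963 had 7 start positions, and so 7 different seeds. The start of form 1 held 47.2% of the counts, and the starts 1, 2 and 3 bases further in held 30.7%, 14.8% and 6.73%. Starts before that of form 1 held 0.642% in sum. Shares fell in this order from the first to the fourth start in 23 of the 30 libraries. The start of form 1 held over 50% of the counts in 13 libraries.

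The 3′ end was more even. The end of form 1, with its terminal CCA, held 78.2% of the counts, the end 1 base shorter 13.9%, the end 2 bases shorter 4.06% and the end 1 base longer 2.49%. It held over 50% of the counts in all 30 libraries, and its share was above that of the common start in all 30. Over libraries, the share at the common end ran from 54.5% to 90.8% with a median of 78.9%, and the share at the common start from 31.8% to 60.7% with a median of 49.0%. Of the 26 forms, 7 ended in CCA. The shortest length listed is 15 nt. A read that starts 3 bases inside form 1 could thus be listed only with the end of form 1 or a later one. This limit can raise the share at that end.

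Lengths followed from the 2 ends. Reads of 18 nt made up 35.2% of the counts, those of 17 nt 30.2%, those of 16 nt 19.9% and those of 15 nt 11.9%. Longer reads were rare, with 2.51% at 19 nt and 0.326% at 20 nt. The table lists lengths from 15 to 34 nt, so any form shorter than 15 nt could not be seen.

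For comparison, the most counted form of each of the 9 other abundant names is shown with its seed in capitals, since the seed is set by the 5′ end. The 10 names with the highest mean log2 cpm, a level relative to the library total on the log2 scale, were used. The paper reports let-7e-5p as its most expressed miRNA, with others of the let-7 family. No let-7 name is among the 10 here, and the reason was not tested. Names that share a seed stand together.
miR-16b: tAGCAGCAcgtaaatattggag
miR-15a: tAGCAGCAcggaatggtttgt
miR-21: tAGCTTATcagactggtgttgg
miR-22a: aAGCTGCCagctgaagaactgt
miR-451: aAACCGTTaccattactgagt
miR-146a: tGAGAACTgaattccatagatgg
miR-126a-3p: tCGTACCGtgagtaataatgca
miR-144-5p: gGATATCAtcttatactgtaagt
miR-125a: tCCCTGAGacccttaacctgt
miR-3963, form 1: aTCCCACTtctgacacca

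These are names known from vertebrate tissues. miR-451 and miR-144 are made in red blood cells, miR-126 in endothelium, and miR-146a takes part in innate immune responses in mammals. The 10 names held 9 different seeds, with miR-15a and miR-16b alone sharing one. None of the 9 other names shared the seed of miR-3963, and no other name of the table had a most counted form with the seed of any miR-3963 form.

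Mean read length was 16.97 nt for miR-3963 and 20.53 nt (miR-15a) to 22.68 nt (miR-146a) for the 9 others, with a median of 21.84 nt. It was below that of every other abundant name in 30 of 30 libraries. Reads of at most 18 nt made up 97.2% of the miR-3963 counts and 0.181% to 7.87% of those of the others, and the share was the highest of the 10 names in all 30 libraries. The usual miRNA lengths of 21 and 22 nt held 0.0019% of its counts, a single read, and 31.2% to 96.8% of those of the others.

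**Figure D1:**
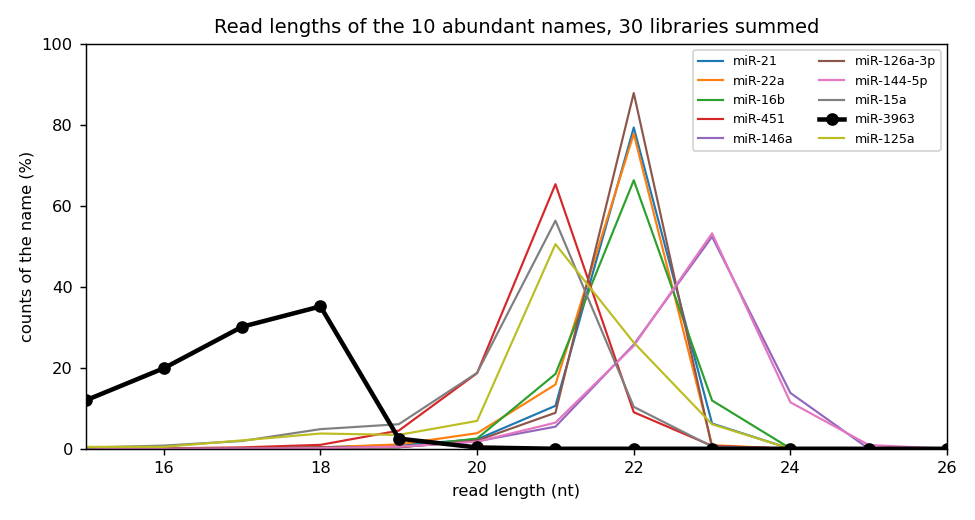
Share of the counts of each name (y axis, %) by read length (x axis, nt) for the 10 abundant names, with the 30 libraries summed; each line is 1 name. The black line of miR-3963 ends at 15 nt, the shortest length listed, reaches 35.2% at 18 nt and is at 0.326% at 20 nt. The other 9 names peak at 21 to 23 nt.

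The 5′ end of the most counted form was shared by 47.2% of the miR-3963 counts and by 77.7% (miR-144-5p) to 96.4% (miR-16b) of the counts of the others, with a median of 92.4%. The share was below that of every other abundant name in 29 of 30 libraries. At the 3′ end, its share of 78.2% lay within the range of the others, 48.9% to 96.6% with a median of 68.6%. Of the 9 others, 8 had a higher share at the common start than at the common end, and miR-126a-3p had the reverse. The most counted form held 35.0% of the name for miR-3963 and 42.6% to 87.1% for the others. In the libraries one by one, the share of miR-3963 was the lowest of the 10 in 8 of 30. That count is limited by zeros of other names. The most counted form was listed at 0 for miR-451 in 13 libraries, miR-125a in 10, miR-21 in 6 and miR-16b in 1. In those libraries, some of them the same, miR-3963 could not be the lowest.

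**Figure D2:**
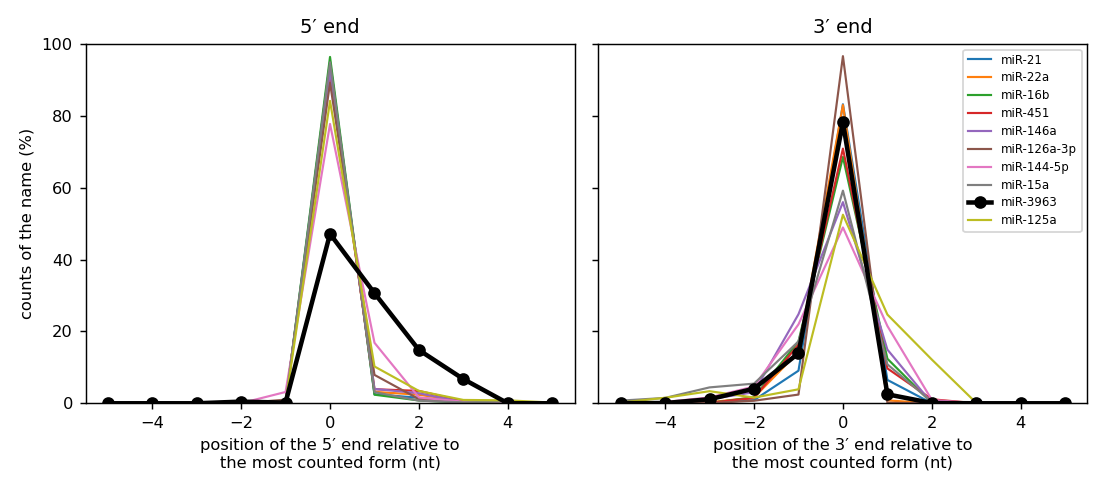
Share of the counts of each name (y axis, %) by position of the 5′ end (left) and of the 3′ end (right) relative to the most counted form of that name (x axis, nt), with the 30 libraries summed; each line is 1 name. At the 5′ end miR-3963 (black) is at 47.2% at position 0 and still at 30.7% and 14.8% at positions 1 and 2, while at the 3′ end its 78.2% at position 0 lies among the others.

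Among all well-counted names, miR-3963 stood at the end of the length range and near the end of the start range. Of the 58 names with at least 1000 counts, miR-3963 had the shortest mean length, and the next was miR-1692 with 17.56 nt over 1624 counts. Of the 57 others, 53 had a mean length over 20 nt. The share at the common start was lower in miR-1692 (36.9%) and miR-142 (42.9%) than in miR-3963, so a ragged 5′ end was not found in this name alone. The share at the common start minus that at the common end was -31.1 percentage points in miR-3963, and 54 of the 57 others had a positive difference. The lowest among the others was -7.45 points, in miR-126a-3p, and their median was 26.3 points. The limit of 15 nt bears more on the ends of a name this short than on those of longer names.

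**Figure D3:**
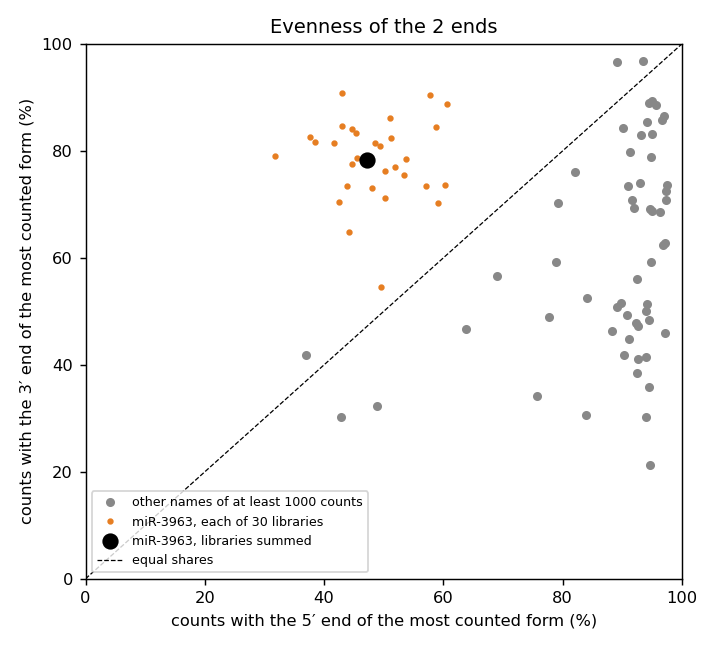
Share of the counts of a name at the 5′ end (x axis, %) and at the 3′ end (y axis, %) of its most counted form; grey points are the 57 other names of at least 1000 counts, the black point is miR-3963 with the libraries summed, the orange points are miR-3963 in each of the 30 libraries, and the dashed line marks equal shares. All 30 orange points lie above the line, where 3 of the grey points lie.

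A terminal CCA was not found in this name alone either. It ended 78.2% of the counts of miR-3963 and 0% of those of the 9 other abundant names. Over the whole table, 89.4% of the miR-23a-3p counts and 84.3% of the miR-223-3p counts also ended in CCA, with reads of the usual miRNA length. miR-3963 gave 47.3% of the 87286 counts ending in CCA, followed by miR-23a-3p with 24.5%, miR-223-3p with 19.6% and miR-192 with 6.52%.

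In the short range the name stood for most of the reads. It gave 62.2% of the 82407 counts of at most 18 nt, and the next name, miR-451, gave 5.35%. Per library it held 58.6 ± 12.8% of these short counts (SD, n = 30), from 31.6% to 80.6%. Reads of at most 18 nt were 3.67 ± 1.56% of a library with the name and 1.45 ± 0.588% without it. The share of 21 and 22 nt in a library was 77.9 ± 4.31% with it and 79.8 ± 4.27% without it.

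Many sequences behind these shares were listed at 0 in some libraries. A sequence was taken as well counted in a library where its median share over the libraries with a count, times the library total, gave over 50 counts. Of 331 such sequences, 243 were listed at 0 in at least 1 such library, and 45.3% of the 5277 values were 0. A sequence counted in few libraries can also meet this rule, so these zeros can include sequences absent from a fish. The most counted form of miR-451 was at 0 in 13 libraries, that of miR-125a in 10, that of miR-21 in 6 and that of miR-16b in 1, although none of these names was at 0 there. Of the 193 miR-3963 values over the same limit, 0 were at 0. With a limit of 10 counts, 39 of 357 miR-3963 values were at 0, all in forms other than the 6 counted in every library. Zeros of other sequences enter the library totals, the log2 cpm levels and the shares of those names, and zeros of the less counted miR-3963 forms enter its own shares.

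The level of miR-3963 varied over a wide range between fish. It held 0.528% of the counts of the control female A2-5, the lowest share, and 6.26% of those of the kisspeptin male A4-9, the highest, with a median of 2.39%. Its mean level was 14.27 ± 0.91 log2 cpm (SD, n = 30), rank 9 of the 172 names, and by summed counts it was rank 11. Its rank in a library ran from 4 to 23. The name was counted in all 30 libraries, as were 29 names in all, and its SD of 0.911 was close to the median SD of those names, 0.862.

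In kisspeptin females at 2 d, the level was 14.70 in fish A1-1, 14.47 in A1-2, 15.08 in A1-3, 14.89 in A1-4 and 14.10 in A1-11-9 log2 cpm. In control females it was 14.68 in A2-2, 12.85 in A2-5, 15.29 in A2-7, 14.90 in A2-9 and 13.70 in A2-10. The controls held both the lowest and the highest of these females, and the groups overlapped. The edgeR quasi-likelihood test gave a log2 difference of 0.24 (SE 0.57, 95% interval -0.96 to 1.43) for kisspeptin against control, with an adjusted p of 0.874. The difference was 0.0046 without the control A2-5 and 0.46 without the control A2-9.

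In kisspeptin males at 2 d the lowest level was 13.69, the median 14.33 and the highest 16.34 log2 cpm. Control males had 14.38 in A2-11, 12.24 in A2-12, 13.91 in A2-14 and 13.11 in A2-16. The 2 groups overlapped, with 1 fish, A1-6, far above the other kisspeptin males. The log2 difference was 1.15 (SE 0.61, 95% interval -0.12 to 2.41), with an unadjusted p of 0.0728 and an adjusted p of 0.559 in edgeR. It was 0.38 without A1-6. The exact permutation test on the levels gave a difference of 1.13 with p = 0.100 (two-sided, 210 arrangements, smallest possible p 0.00476) and 0.30 adjusted over the 3 kisspeptin comparisons. Without the control A2-11 it was 1.46 with an exact permutation p of 0.0357.

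In kisspeptin males at 4 d, the level was 12.74 in A4-3, 14.32 in A4-8, 15.54 in A4-9, 15.03 in A4-10 and 13.21 in A4-17 log2 cpm. Control males had 14.90 in A3-2, 12.85 in A3-5, 14.65 in A3-6, 14.70 in A3-9 and 14.62 in A3-11. The kisspeptin males spread on both sides of the controls. The edgeR difference was 0.10 (SE 0.57, 95% interval -1.14 to 1.34, adjusted p 0.982), and the difference of the mean log2 levels was -0.18 (exact permutation p = 0.833), so the sign depended on the scale. The edgeR difference was -0.30 without A4-9 and 0.37 without A4-3.

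**Figure D4:**
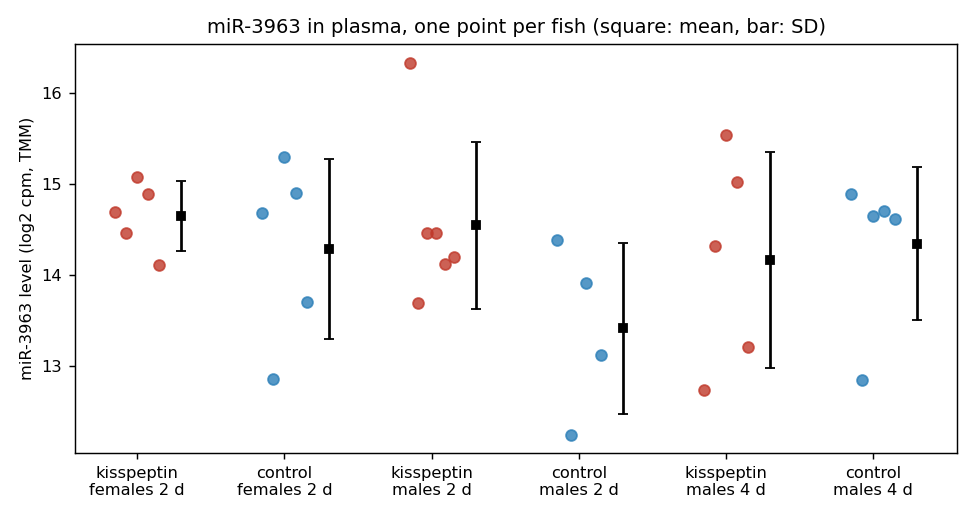
Level of miR-3963 (y axis, log2 cpm with TMM scaling) in each fish of the 6 groups (x axis); points are fish, red for kisspeptin and blue for control, squares are group means and bars are SDs. Group means lie between 13.41 in control males at 2 d and 14.65 in kisspeptin females, and the points of all groups overlap.

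By mean level the groups stood in the order kisspeptin females 14.65 ± 0.38, kisspeptin males at 2 d 14.55 ± 0.92, control males at 4 d 14.34 ± 0.84, control females 14.29 ± 0.99, kisspeptin males at 4 d 14.17 ± 1.19 and control males at 2 d 13.41 ± 0.94 log2 cpm (SD). The values of all neighbours in this order overlapped. The largest step between neighbours was 0.75, at the low end.

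The other comparisons of the design did not pass the test either. The kisspeptin effect in males minus that in females at 2 d was 0.91 (SE 0.83, 95% interval -0.81 to 2.63, edgeR adjusted p 0.726), and it was 0.14 without the kisspeptin male A1-6 and 1.53 without the kisspeptin male A1-7. The effect at 4 d minus that at 2 d in males was -0.92 (SE 0.85, 95% interval -2.68 to 0.85, edgeR adjusted p 0.824), and it was -0.42 without A1-6 and -1.71 without the kisspeptin male A4-9. Males minus females at 2 d gave -0.40 (SE 0.41, edgeR adjusted p 0.805), and 4 d minus 2 d in males gave 0.26 (SE 0.42, edgeR adjusted p 0.897). Without A1-6 these were -0.79 and 0.51, and without A4-9 the latter was -0.069. All 4 intervals of the fits with every fish reach past a 1-unit log2 difference in at least 1 direction.

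miR-3963 was called in 0 of these 7 comparisons, beside a background of 0% of the names in edgeR. In the 3 kisspeptin comparisons, 0 of 123, 0 of 123 and 0 of 107 names had an adjusted p under 0.05, and 11, 10 and 2 had an unadjusted p under 0.05. DESeq2 called 0, 1 and 0 names there and limma-voom 0, 0 and 0. In the other 4 comparisons, edgeR called 0 names, with 7, 12, 13 and 8 at an unadjusted p under 0.05, DESeq2 called 1 or 2 names and limma-voom 0 or 1. miR-3963 was not called by either tool in any comparison.

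No single form of the name was called. Of the 26 forms, 15 passed the filter on low counts at 2 d and 12 at 4 d. Of these, 0 had an adjusted p under 0.05 in edgeR, limma-voom or DESeq2, beside a background of 0% of the 684 isomiRs tested at 2 d and 0% of the 362 at 4 d in edgeR. An unadjusted edgeR p under 0.05 was found for 1 form in females, 1 in males at 2 d and 0 at 4 d, and for 118, 72 and 15 of all isomiRs. Over all isomiRs, DESeq2 called 13, 13 and 2 and limma-voom 0, 0 and 1. In males at 2 d, 12 of the 15 forms were higher with kisspeptin, with a median log2 difference of 1.15 against 0.23 over all isomiRs. Without A1-6, 10 of the 15 were higher with a median of 0.49. In females 8 of 15 were higher (median 0.09, all isomiRs -0.28) and in males at 4 d 4 of 12 (median -0.14, all isomiRs 0.04). With 1 fish left out at a time, 5 to 11 of the 15 forms were higher in females (without A1-3 and without A1-11-9 or A2-2), and 0 to 8 of the 12 in males at 4 d, with 0 without A4-9. The forms overlap in sequence and come from the same libraries, so they are not replicates of one another.

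No difference in the make-up of the name between treatments passed the test. In males at 2 d, form 1 held 38.1 ± 6.38% of the counts with kisspeptin and 43.1 ± 6.92% in controls (exact permutation p = 0.248). In females it held 35.7 ± 5.61% and 39.0 ± 8.72% (exact permutation p = 0.556), and in males at 4 d 31.4 ± 6.19% and 32.9 ± 6.32% (exact permutation p = 0.706). The share ending in CCA was 80.1 ± 4.19% and 79.0 ± 7.20% in females (exact permutation p = 0.786), 85.1 ± 3.13% and 81.8 ± 5.09% in males at 2 d (exact permutation p = 0.214), and 71.7 ± 10.7% and 71.8 ± 4.73% in males at 4 d (exact permutation p = 0.976). Mean length differed by at most 0.07 nt in these 3 comparisons, with exact permutation p-values from 0.390 to 0.817.

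No relation between the level and the depth passed the test. Over the 30 libraries, Pearson's r with the log2 library total was -0.03 (permutation p = 0.882) and Spearman's rho 0.10 (permutation p = 0.606). Within groups r was -0.15 (permutation p = 0.467), and without the 2 fish farthest from the median total, A2-2 and A2-5, it was 0.04 (permutation p = 0.855). Without scaling factors r was -0.231 (permutation p = 0.218). With the other names limited to sequences counted in all 30 libraries, an alternative chosen after the zeros were seen, r was -0.255 (permutation p = 0.174).

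Red blood cells lie next to plasma in any blood sample, so the summed level of the red cell miRNAs (miR-451, miR-144, miR-486 and miR-16) was set beside miR-3963. Of these 4 miRNAs, 3 were found, under 6 names, and the log2 summed level had group medians from 17.4 in control males at 2 d to 18.2 in kisspeptin males at 2 d. Control males at 2 d were thus lowest both in mean miR-3963 level and in this list. Kisspeptin males at 2 d, with a mean miR-3963 level of 14.55, were the highest in this list. Kisspeptin females went the other way, with the highest mean miR-3963 level, 14.65, and a list median of 17.6, below the 17.7 of control females. Fish A1-6 was the highest of the 30 in both levels. Both are divided by the same TMM scaling factor of the library, which was lowest in A1-6 (0.695). By share of the library, A4-9 (6.26%) was above A1-6 (5.75%) in miR-3963. The part of red cell RNA in the miR-3963 values was not tested.

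Over the 30 libraries, r between both levels was 0.31 (permutation p = 0.0924, 0.185 adjusted over the 2 relations) and rho was 0.31 (permutation p = 0.0957, 0.191 adjusted). Within groups r was 0.19 (permutation p = 0.344), and without the 2 fish farthest from the median list level, A1-6 and A2-5, it was 0.33 (permutation p = 0.0847). Without A2-5 alone r was 0.486 (permutation p = 0.00805), and without A1-6 alone 0.138 (permutation p = 0.478). Without scaling factors r was 0.207 (permutation p = 0.273). The zeros of miR-451 enter this list. With the other names limited to sequences counted in all 30 libraries, and every form of miR-3963 kept, r was 0.04 (permutation p = 0.815). This alternative was chosen after the zeros were seen.

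The names whose levels over the 30 libraries were most like that of miR-3963, by Spearman's rho among 72 names counted in at least 20 libraries, were miR-456 (0.41), miR-210-5p (0.37), miR-192 (0.36), miR-25-3p (0.36) and miR-15b (0.35). All are weak, and the points share the library totals. Within groups these were 0.24, 0.20, 0.35, 0.21 and 0.40 in the same order. miR-456 had only 247 counts over the 30 libraries. The most opposite was miR-27c with -0.58. Among the abundant names, miR-451 had 0.22 and miR-146a had -0.46.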

How the data were processed

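Plasma small RNA libraries were made by the study's authors with the NEXTflex small RNA kit. Per the paper's methods and the submitters' processing notes, adapters and 4 random bases at each end were removed (cutadapt), and reads were mapped (Bowtie2, up to 10 hits) to the miRBase 21 hairpins of all species. The deposited table holds whole-number counts per isomiR, not normalized. Names were summed over their isomiRs. Levels are log2 cpm with TMM factors and a prior count of 1. Main tests were edgeR 4.0.16 quasi-likelihood fits, adjusted by Benjamini-Hochberg over all names or isomiRs with at least 1 cpm in 4 fish, with group as the only term. limma-voom 3.58.1 (the test of the study) and DESeq2 1.42.0 were alternatives. Shares and levels were compared by two-sided exact permutation tests and relations by 100000 permutations. Each isomiR was placed without gaps on the most counted isomiR of its name (at least 12 bases, at most 1 mismatch). p-values measure the spread between fish.

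The name, the abundant names and the red cell, muscle and liver lists were chosen with earlier results of these data known. The summed muscle level had group medians from 12.9 to 16.6 log2 cpm and the summed liver level from 12.5 to 15.6, and neither was used in a test. The rule for named miRNAs took the 10 names of highest mean level, the 5 most like miR-3963 in level and up to 8 forms of miR-3963 with at least 1% of its counts. The names miR-1692, miR-142, miR-23a-3p, miR-223-3p and miR-27c, miR-192 as a CCA-ended name, and the 2 longest forms were added after their values were seen. Of 61 pairs of libraries within a group, 0 held identical counts. Sequencing was done in 2 runs. The sources used here do not say which libraries were in which run, so no within-run value could be given. Scripts were tested on simulated data.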

Additional observations from a re-analysis of the deposited data

Results flagged for a closer look

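A gap test was applied to the highest and lowest fish of each of 43 sets, a measure of miR-3963 in a group. At the level of the test, chance alone gives about 2.15 marked sets. The measures of a group come from the same fish and some are shares near a limit, so this number is rough. The test marked 4. In kisspeptin males at 2 d, the level of A1-6 was 16.34 log2 cpm and that of the nearest fish 14.46. In control males at 4 d, the level of A3-5 was 12.85 log2 cpm and that of the nearest fish 14.62. In control males at 2 d, 88.1% of the miR-3963 counts of A2-14 were of at most 18 nt, against 97.9% in the nearest fish. In kisspeptin males at 4 d, 0.0154% of the counts of A4-9 were of 21 or 22 nt, which is the 1 read of the 22-nt form, and the other fish had 0%. With the other fish at 0%, any such read would have been marked.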

How the results depend on the processing

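Of 207 values under other settings for 45 results, 198 counted as unchanged. For tests this means the same sign and side of the threshold, for the length and end profile a value within its spread, and for called forms the same count. Some settings could not change a value. One kept libraries with at least 100 counts of miR-3963, and the lowest library had 346. With limma-voom, the effect in males at 4 d was -0.027 in place of 0.10, both with adjusted p over 0.05. In the length and end profile, the values of miR-3963 itself could change only with the mean of the libraries, where they stayed within their spread. Its forms hold no mismatch and none is listed under another name, and the remaining settings change only the other names. The medians of the other abundant names did move. As the mean of the libraries, their most counted form held 56.0% (64.9% with summed counts) and their common 3′ end 59.3% (68.6%). With the 10 names of most summed counts, their share of 21 and 22 nt was 87.5% (76.8%). An alternative added after the zeros were seen limited the other names to sequences counted in all 30 libraries and kept every form of miR-3963. Of the 49 sequences counted in all 30 libraries, 6 were miR-3963 forms. The alternative left 7 of the 9 other names. With it, the medians of these names were 60.6% for 21 and 22 nt, 0.0% for at most 18 nt and 21.92 nt for mean length. They were 94.5% for the common 5′ end and 60.7% for the common 3′ end. The filter takes out less counted forms of those names and none of miR-3963, so these medians follow in part from the filter. In that alternative the kisspeptin effects on miR-3963 were 0.26, 0.96 and 0.20 in females, males at 2 d and males at 4 d, with edgeR adjusted p from 0.516 to 0.882.

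Leaving out 1 fish at a time gave 390 values. Of these, 364 kept their sign and side of the threshold, or their count of called forms, though their size could move. A further 21 changed sign or went to 0, and 5 passed the threshold. The differences of the level ranged from 0.0045 to 0.61 in females at 2 d, from 0.74 to 1.46 in males at 2 d and from -0.55 to 0.18 in males at 4 d. The edgeR effect in males at 4 d ranged from -0.30 to 0.37, that in females from 0.0046 to 0.46, that in males at 2 d from 0.38 to 1.56, the difference between the sexes from 0.14 to 1.53, that between the days from -1.71 to -0.42, males against females from -0.79 to -0.26 and that of 4 d against 2 d from -0.069 to 0.51. The difference in the share of form 1 in males at 4 d ranged from -3.38 to 0.76 points. That in the share ending in CCA ranged from -0.28 to 3.98 points in females, 1.93 to 5.68 in males at 2 d and -2.57 to 4.20 in males at 4 d. That in mean length in females ranged from -0.099 to 0.052 nt, and that in the share of 21 and 22 nt in males at 4 d from 0.0 to 0.0038 points. The relation to the library total ranged from -0.075 to 0.064 and that to the red cell list from 0.138 to 0.486. The cause of these shifts was not tested. No paired analysis was possible because the replicate numbers follow the accession order only and no fish is in 2 groups. Reads shorter than 15 nt and the genomic origin of the reads could not be examined.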

Other observations

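The 3′ ends of miR-3963 differed between the days in males. This comparison was made after the values were seen, as 1 of 8 on the make-up of the name (4 measures, 4 d against 2 d in males and males against females at 2 d). The share ending in CCA ran from 54.5% to 81.6% in the 10 males at 4 d, with a mean of 71.7%. It ran from 77.5% to 90.8% in the 10 males at 2 d, with a mean of 83.8%. These ranges overlapped with the treatments pooled, but not within either treatment. In kisspeptin males the highest share at 4 d was 81.6% and the lowest at 2 d was 81.7%. In control males these were 76.9% and 77.5%. The difference was -11.7 points averaged over both treatments (exact permutation within treatment, two-sided p = 1.72e-05, the smallest that 58212 arrangements can give, and 0.000137 adjusted over the 8). It ranged from -12.9 to -9.55 points with 1 fish left out, with a highest exact p of 9.45e-05. Ends 1 base shorter held 16.7% at 4 d and 10.3% at 2 d, and ends 2 bases shorter 8.13% and 2.09%. Mean length was lower at 4 d by 0.19 nt (exact permutation p = 0.00325, 0.0130 adjusted), and the share of form 1 differed by -8.50 points (exact permutation p = 0.00967, 0.0258 adjusted). The share at the common 5′ end differed by -2.51 points (exact permutation p = 0.436). The 4 comparisons of males with females at 2 d gave adjusted p from 0.230 to 0.892.

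In the 9 other abundant names, the share at the common 3′ end differed between the days by -8.50 (miR-21) to 30.7 points (miR-451). Exact permutation p-values ran from 0.0491 to 0.755, with adjusted p of at least 0.196 over the 16 tests of 3′ ends by day. The most counted form of miR-21 was listed at 0 in 6 libraries and that of miR-451 in 13, males of both days among them. Such zeros enter both extremes. The share ending in CCA of miR-23a-3p differed by -15.8 points (exact permutation p = 0.428) and that of miR-223-3p by -17.5 points (exact permutation p = 0.330). Libraries ran from 0% to nearly all of the counts, and the fewest counts in a library were 6 for miR-23a-3p and 2 for miR-223-3p. Whether miR-3963 differed from those names in this was not tested. Males of 4 d and of 2 d were different fish with different label prefixes. Per the paper's sampling scheme they came from different tanks, so day and tank cannot be told apart.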
